A study of Caenorhabditis elegans with 2 samples.

Results

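Occupancy by AMA-1, the largest protein of the RNA polymerase II complex, was examined at 9 tubulin genes of Caenorhabditis elegans. They were chosen by name, 9 of 19985 annotated protein-coding genes. The 5 genes used broadly or supplied maternally were tba-1, tba-2, tbb-1, tbb-2 and tbg-1, and the 4 genes with restricted use were mec-7, mec-12, tbb-4 and tbb-6. For each gene, every peak summit inside the gene or within 1000 bp of either end was collected from the deposited peak lists.

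The data were chromatin immunoprecipitation followed by sequencing (ChIP-seq) from whole young adult worms of mixed sex, in 2 biological replicates of a single group. Worms of strain YL489 carry the mutation unc-119(ed3) III and the transgene vrIs104, in which the pie-1 promoter, active in the germline, drives AMA-1:GFP:FLAG ahead of a PUF-5 3′ UTR, together with unc-119(+). Both replicates carry the transgene, the line is a single one, and the sources used here do not say if the antibody recognised the tag or the native protein, so signal of germline cells and of other tissues cannot be told apart. The control that the labels point to was not analysed here, and with a single condition no test between conditions was possible.

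The lists used were 887 optimal peaks selected as reproducible, 30000 regions called on the pooled replicates, 28020 regions of replicate 1 and 30000 regions of replicate 2. The pooled and replicate lists were made as candidates for the reproducibility step and reach down to weak regions, and the 887 optimal peaks were the 887 strongest pooled regions. Each region carries the authors' signal value, whose scale is not given, and the rank of a region within its list (1 is the strongest) is used below. Ranks in lists of different lengths are not on 1 scale, and read depth is unknown because the lists hold no read counts.

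Alpha- and beta-tubulins pair into the dimers from which microtubules are built, and gamma-tubulin, encoded by tbg-1, nucleates microtubules at centrosomes. TBA-1, TBA-2, TBB-1 and TBB-2 are the main tubulins of the germline and of the dividing embryo, where they form the spindle. MEC-7 (beta) and MEC-12 (alpha) form the specialised microtubules of the touch receptor neurons, TBB-4 (beta) is found in ciliated sensory neurons, and tbb-6 (beta) is known as a gene induced by mitochondrial stress. In whole worms, occupancy in fewer cells and less occupancy per cell cannot be told apart.

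The sequences around the strongest summit of 5 members are shown because the results turn on where these summits lie. Each is 29 bases of the plus strand of build ce11 (WBcel235, sequence from the RefSeq genome), written 5′ to 3′, with the summit base in capitals. The first 3 are optimal summits and the other 2 are the strongest pooled summits of mec-7 and mec-12.
tbg-1, chrIII:9629967-9629995: ttttgcaacgctcgCacgcagtttttgca
tbb-2, chrIII:4015351-4015379: gccgcgaaaaacccAtgtaagtagtaatc
tbb-1, chrIII:10740103-10740131: gagacgcagacactCtttgtctgtgaata
mec-7, chrX:7775904-7775932: tccggtcaggatatTcctcgcgaattttt
mec-12, chrIII:3136691-3136719: ttcaaaatttcctcCgtcaaatagcaaaa

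Optimal peaks were found near 3 of the 9 genes, tbg-1, tbb-2 and tbb-1, and all 3 belonged to the broadly used set. The counts were 3 of 5 broad genes and 0 of 4 restricted genes, beside 5.41% of all protein-coding genes. None of the 3 summits lay inside its tubulin gene, and at 500 bp the count was 0 of 9, beside 4.54% of all genes. Each of the 3 summits lay inside or just beyond a close neighbour of the tubulin gene, so none can be assigned to the tubulin gene by position alone.

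The peak at tbg-1 had rank 186 and an authors' signal of 69.94. Its summit at position 9629981 of chromosome III lay 827 bp upstream of the 5′ end of tbg-1 (9626536 to 9629154, minus strand) and 96 bp upstream of rpac-19, which encodes a subunit of RNA polymerases I and III. The gene rpac-19 is on the same strand as tbg-1, and the gap between them is 91 bp. The summit also lay 116 bp past the 3′ end of ubc-7. In replicate 2 the summit was at the same base, with rank 252. The overlapping region of replicate 1, with rank 744, had its summit 188 bp farther out, 1015 bp from tbg-1 and so beyond the limit. A second pooled summit at 1027 bp, with rank 1643, lay close to that position. The replicates thus placed their summits at different points upstream of rpac-19, and position alone does not assign the peak to rpac-19 or to ubc-7.

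The peak at tbb-2 had rank 507 and a signal of 47.9. Its summit at 4015365 on chromosome III lay 545 bp past the 3′ end of tbb-2 (4015910 to 4017627, minus strand), inside the convergent gene C36E8.4, whose 3′ end was 414 bp away. Replicate 1 placed it within 7 bp at rank 95, and replicate 2 placed it 113 bp away at rank 603. This was the member site with the best rank in replicate 1.

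The peak at tbb-1 was the weakest of the 3, with rank 829 of 887 and a signal of 38.64. Its summit at 10740117 on chromosome III lay 751 bp past the 3′ end of tbb-1 (10740868 to 10742432, minus strand), 60 bp past the 3′ end of K01G5.8 and 325 bp upstream of smap-1. Its overlapping regions had rank 4799 in replicate 1 and rank 1070 in replicate 2, so the site stood among the 887 strongest of neither replicate.

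**Figure D1:**
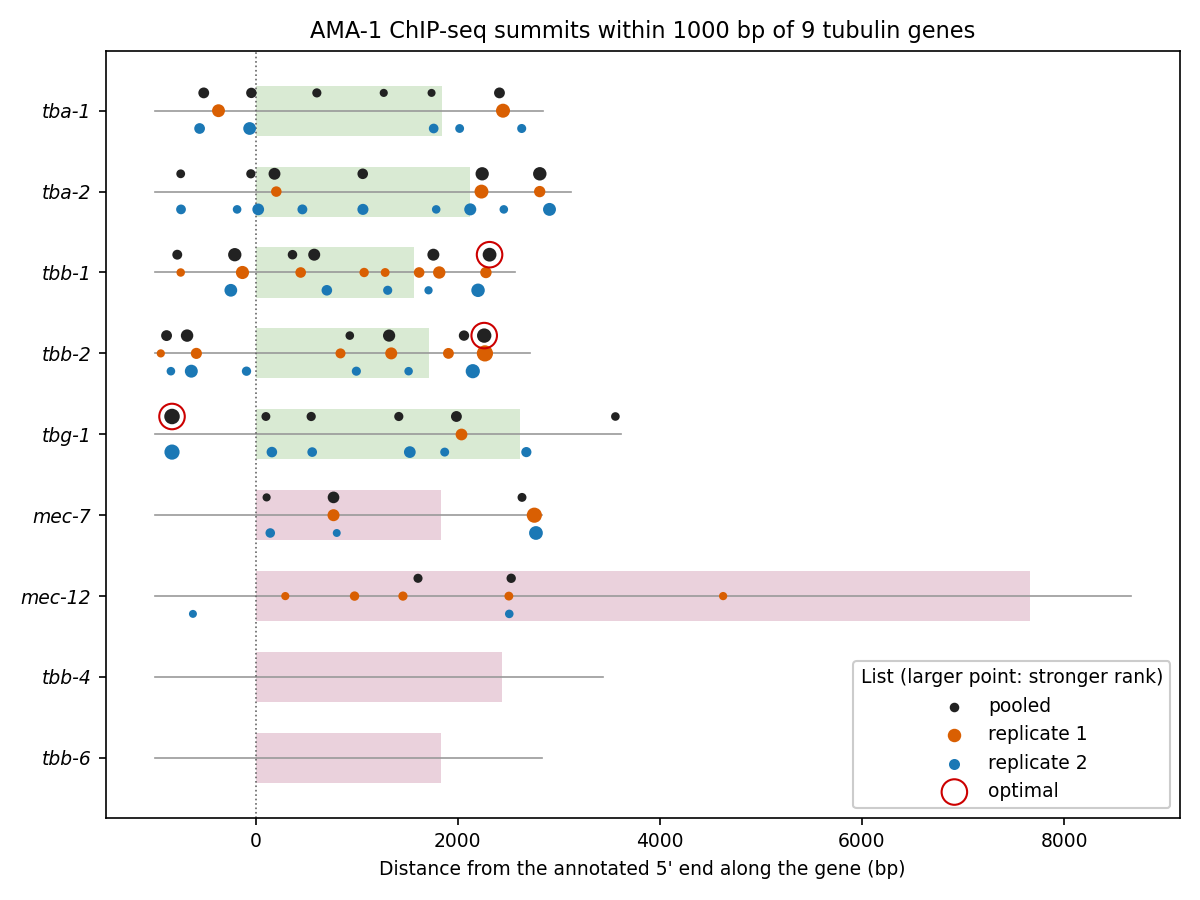
Summits of each list along the 9 genes, drawn 5′ to 3′ with distance from the annotated 5′ end in bp; boxes are gene bodies (green for broad genes, pink for restricted genes), thin lines the 1000 bp flanks, larger points stronger ranks and red rings optimal summits. The 3 ringed summits lie outside the boxes, and tbb-4 and tbb-6 have no point.

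Weaker, candidate summits were present near most members, and their number differed among genes. Within 1000 bp the pooled list had a summit near 7 of 9 genes, beside 49.6% of all protein-coding genes. It had 6 summits at each of the 5 broad genes, against 3 at mec-7, 2 at mec-12 and 0 at tbb-4 and tbb-6. At least 6 pooled summits, a number taken from the broad genes' own count and so a description only, were found for 5 of 9 members and for 8.77% of all genes. The median over all genes was 0. The numbers of the 2 sets overlapped in replicate 1, which had 2 summits at tba-1, 3 at tba-2, 8 at tbb-1, 6 at tbb-2 and 1 at tbg-1, against 2 at mec-7 and 5 at mec-12. Replicate 2 had 5 at tba-1, 9 at tba-2, 5 at tbb-1, 6 at tbb-2 and 6 at tbg-1. It had 3 at mec-7 and 2 at mec-12. The share of all genes with as many summits is not given here for a single replicate, so these counts are a description only.

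**Figure D2:**
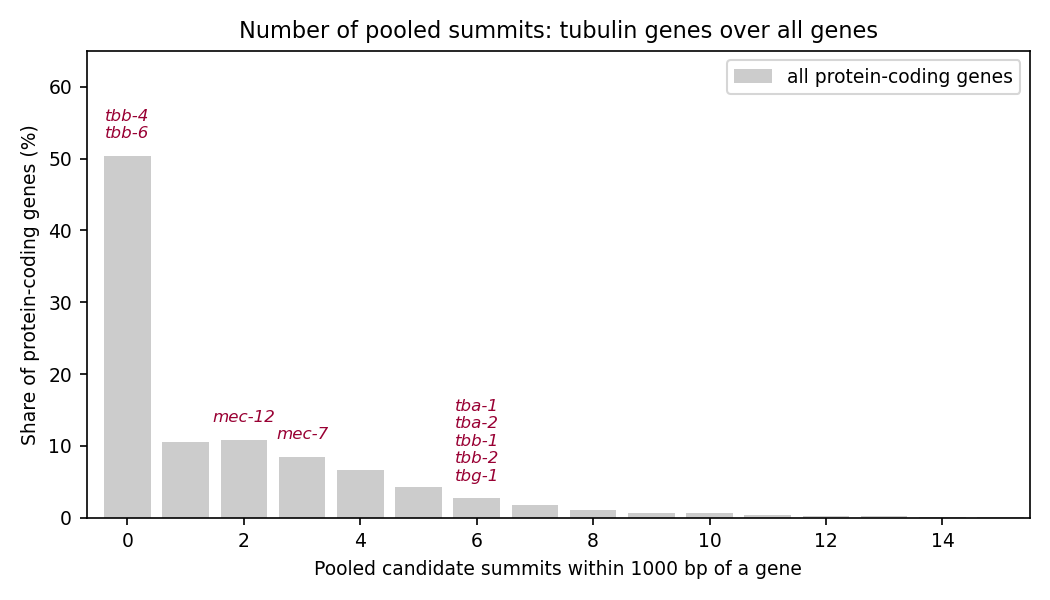
Share of protein-coding genes (%) by number of pooled candidate summits within 1000 bp, with the 9 tubulin genes written over their bar; the axis ends at 15 summits and the few genes above that are not drawn. The 5 broad genes stand together at 6, and tbb-4 and tbb-6 stand at 0 with 50.4% of genes.

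The difference in number was also present per length. The broad genes and their flanks spanned 19.87 kb and held 30 pooled summits, or 1.51 per kb. The restricted genes spanned 21.78 kb and held 5, or 0.230 per kb, beside 0.299 per kb in the nuclear genome. In replicate 1 the sums were 20 for broad genes, most of them at tbb-1 and tbb-2, and 7 for restricted genes, and in replicate 2 they were 31 and 5.

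Chromosome was not matched between the sets. The broad genes are on chromosomes I and III, where 66.3% and 73.3% of protein-coding genes had a pooled summit within 1000 bp. Of the restricted genes, mec-7 and tbb-4 are on X (38.6%), tbb-6 is on V (33.9%) and mec-12 is on III. An optimal summit was near 7.02% of genes on I, 7.95% on III, 5.24% on X and 3.02% on V. The members with an optimal summit, tbg-1, tbb-2 and tbb-1, are all on III. The part of chromosome in the difference between the sets was not tested.

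In the pooled list the broad summits also included the stronger candidates. Of the 30 pooled summits at broad genes, 11 had the highest −log10 q-value that the list holds (3.90), against 0 of 5 at restricted genes. In the whole pooled list, 3971 of 30000 regions had that value, so 0 of 5 is not a distinct result for the restricted genes. In replicate 1 the highest value of the list was held by 10 of 20 broad and 2 of 7 restricted summits, beside 5497 of 28020 regions. In replicate 2 it was held by 7 of 31 and 1 of 5, beside 2776 of 30000 regions. Regions of both replicates overlapped 18 of the 30 broad pooled summits and 3 of the 5 restricted ones, and 2 broad ones overlapped neither replicate. The share of all pooled regions with such overlaps is not given here. Those 2 were weak summits in the coding exons of tba-1, with ranks 17285 and 27759.

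All summits were within 1000 bp of a member by the rule of collection, and some lay in a neighbour. Of the 35 pooled summits at members, 17 were inside the gene, 9 upstream and 9 downstream. Of the 18 in the flanks, 10 were inside another protein-coding gene. For 25 of the 35, the member's own 5′ end was the nearest protein-coding 5′ end. A pooled summit within 250 bp of the gene's own 5′ end was found for 5 of 9 members, beside 19.8% of all genes. Those 5 were tba-1, tba-2, tbb-1, tbg-1 and mec-7.

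Both alpha-tubulin genes of the broad set are on chromosome I. Gene tba-2 (12964674 to 12966795, minus strand) had its 2 strongest pooled summits, of ranks 1112 and 1240, downstream in C47B2.2, the second of them 26 bp past the 5′ end of that gene. The strongest inside tba-2 had rank 3478, in an intron 187 bp from the 5′ end, and overlapped regions of rank 8218 in replicate 1 and 3824 in replicate 2. A summit 47 bp upstream had rank 16749. So the sites of tba-2 that ranked highest were nearer to the start of the next gene than to its own.

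Gene tba-1 (9785781 to 9787624, minus strand) had its best pooled rank, 6814, at a summit 570 bp past its 3′ end in drsh-1, the gene of the microRNA-processing enzyme Drosha. A summit 513 bp upstream had nearly the same rank, 6882, and one 42 bp upstream had rank 8869. The site 42 bp upstream overlapped a region of rank 1846 in replicate 2 and none in replicate 1. The site in drsh-1 went the other way, with rank 699 in replicate 1 and 18193 in replicate 2. An optimal summit of rank 581 fell 110 bp beyond the limit, 1110 bp upstream of tba-1 and 9 bp past the 5′ end of cox-5B, a cytochrome c oxidase subunit gene.

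Upstream of the beta-tubulin gene tbb-1, a pooled summit of rank 1226 lay in the gap shared with the divergent gene rib-2, 206 bp from tbb-1 and 172 bp from rib-2. It was found in both replicates, at ranks 1399 and 1885, with summits 130 bp and 245 bp upstream of tbb-1. The nearer 5′ end was that of tbb-1 in replicate 1 and that of rib-2 in replicate 2. Within the coding exons of tbb-1 the best pooled rank was 3199.

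At tbb-2, the paired beta-tubulin gene, no pooled summit lay within 250 bp of the 5′ end. The nearest upstream ones were 678 bp away at rank 2359, inside the non-coding RNA gene C36E8.10, and 881 bp away at rank 6723. An intron summit had rank 2768. Replicate 2 had a weak summit 90 bp upstream, at rank 15935, and replicate 1 had none between 586 bp upstream and 840 bp past the 5′ end.

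Within the gamma-tubulin gene itself, tbg-1 had pooled summits of ranks 6703, 16694, 17179 and 19490, all weaker than the optimal peak upstream of the gene. Replicate 1 contributed 1 summit within 1000 bp of tbg-1, at rank 3756 in an intron, and replicate 2 contributed 6. By its best rank in each replicate, 3756 and 252, the genes most like tbg-1 among the 8834 with summits in both replicates were daf-12, with ranks 3730 and 195, rnf-126, with 3645 and 311, and atp-1, with 3846 and 153. This likeness rests on 2 replicates only, and on a replicate 1 rank that leaves out the region of rank 744 whose summit lay 1015 bp away.

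Among the restricted genes, mec-7 was the one with a strong site close by. The touch neuron beta-tubulin gene lies at 7774856 to 7776689 on the minus strand of chromosome X. Its best pooled summit, of rank 4039 and signal 21.52, was in a coding exon 771 bp from the 5′ end, with overlapping regions of rank 3183 in replicate 1 and 29876 in replicate 2. A weak summit of rank 27454 lay in the 5′ UTR. The site in the coding exon was thus among the stronger candidates in 1 replicate and near the foot of the list in the other.

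The strong site near mec-7 was an optimal summit of rank 429 and signal 51.22 at 7773853, 1003 bp past the 3′ end and so 3 bp outside the limit. It lay inside deg-1, a gene of a degenerin channel subunit, and 63 bp from a tRNA gene, with 2 small RNA genes within 250 bp. The overlapping region of replicate 1, with rank 253, had its summit 925 bp past the 3′ end, inside the limit. In replicate 2 the stronger of 2 overlapping regions, with rank 479, had its summit at 7773698, 155 bp beyond the optimal summit and so outside the limit, and the weaker, with rank 857, had its summit 941 bp past the 3′ end, inside it. Transfer RNA genes are transcribed by RNA polymerase III, and the part of the tRNA gene in this signal was not tested. No optimal summit at tbg-1, tbb-2 or tbb-1 lay within 250 bp of a small RNA gene.

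The touch neuron alpha-tubulin gene mec-12 (3131574 to 3139234, minus strand of chromosome III) was the longest member, at 7661 bp, and had weak summits only. Its pooled summits had rank 15665, in an intron, and rank 17781, in a coding exon, and signals of 10.81 and 9.85. Replicate 1 had 5 summits, at ranks from 15272 to 27005, and replicate 2 had 2, at ranks 22839 and 29484. The intron site was placed alike by both replicates, 2506 bp and 2510 bp past the 5′ end. Pooled summits of the same or a better rank were near 40.6% of all protein-coding genes.

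No list had a summit within 1000 bp of tbb-4 (9434452 to 9436893, minus strand of X) or of tbb-6 (12261531 to 12263368, plus strand of V). No summit in the pooled or in either replicate list was the case for 2 of 9 members and for 30.4% of all genes. The share was 35.1% of genes on X and 44.3% on V. The nearest pooled summit was 28954 bp from tbb-4, a distance reached or exceeded by 7.20% of nuclear genes, and 11767 bp from tbb-6, reached by 20.7%. Replicate summits came to 4881 bp and 4761 bp from tbb-4. Replicate 1 had a summit of rank 8125 at 1526 bp from tbb-6, where replicate 2 had none nearer than 12324 bp. How few reads would have been called at these genes is not known.

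The order of the members by best rank was kept only in part between lists. Pooled, it ran from tbg-1 (186) through tbb-2 (507), tbb-1 (829), tba-2 (1112), mec-7 (4039) and tba-1 (6814) to mec-12 (15665). In replicate 1 it ran from tbb-2 (95) through mec-7 (253), tba-1 (699), tba-2 (751), tbb-1 (1399) and tbg-1 (3756) to mec-12 (15272). In replicate 2 it ran from tbg-1 (252) through tbb-2 (603), mec-7 (857), tbb-1 (1070), tba-2 (1642) and tba-1 (1846) to mec-12 (22839). The last place of mec-12, ahead of only the 2 genes without a summit, was the same in all 3 lists. In all 3, tbb-2 also stood ahead of tbb-1, tba-2 and tba-1, and mec-7 ahead of tba-1. The ranks of mec-7 came from different sites, however. The pooled one was in its coding exon, and those of the replicates were at the site in deg-1 near the tRNA gene. Inside mec-7 the best ranks were 3183 in replicate 1 and 14138 in replicate 2, both behind the best ranks of tba-1 (699 and 1846). Inside tba-1, replicate 1 had no summit and the best rank in replicate 2 was 13213. Gene tbg-1 was first in 2 lists and sixth in replicate 1, where the region of rank 744 at its peak had its summit 1015 bp away, beyond the limit.

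**Figure D3:**
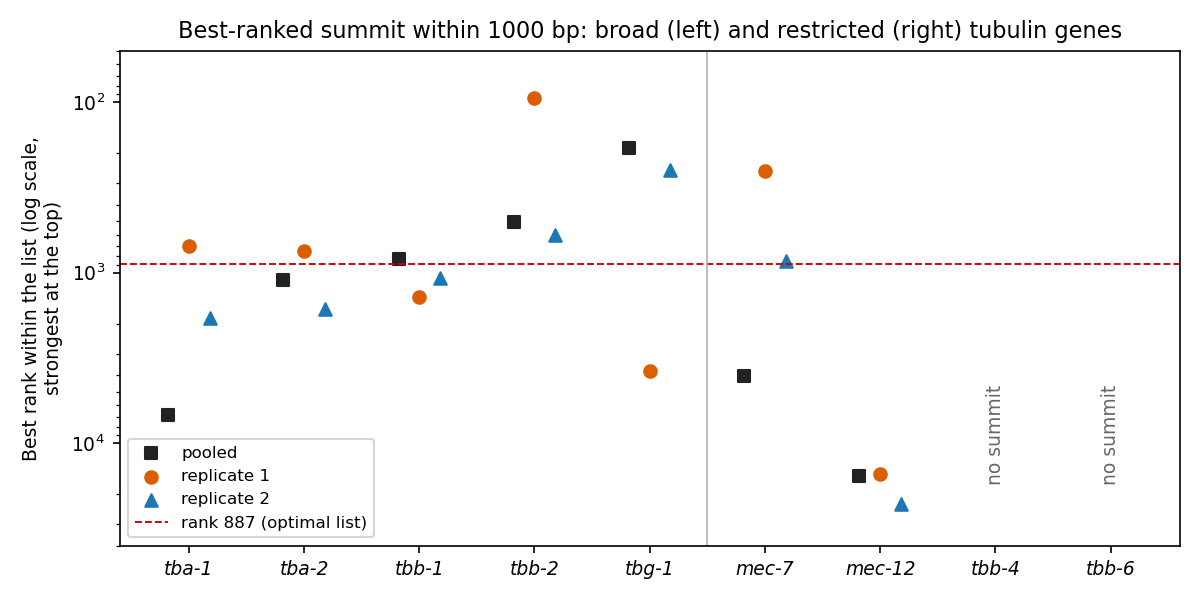
Best rank of a summit within 1000 bp of each gene in the pooled list (black squares), replicate 1 (orange circles) and replicate 2 (blue triangles), on a log axis with the strongest at the top; the dashed line is rank 887. In the replicates, tbg-1 spans ranks 252 to 3756, while mec-12 is weaker than rank 15000 in every list.

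Each replicate list had a summit near 7 of 9 members, the same 7 in both, beside 56.1% of all genes in replicate 1, 57.0% in replicate 2 and 44.2% in both. Among the 887 strongest regions of replicate 1 there were summits near 4 members, tba-1, tba-2, tbb-2 and mec-7, beside 5.24% of all genes. Among the 887 strongest of replicate 2 there were summits near 3, tbb-2, tbg-1 and mec-7, beside 5.21%. By this limit tbb-2 had such a summit in both replicates and in the optimal list. The sites at tbg-1 and mec-7 turn on the limit. The optimal peak at tbg-1 overlapped regions of rank 744 in replicate 1 and 252 in replicate 2, the first with its summit at 1015 bp. The optimal peak near mec-7 overlapped regions of rank 253 and 479 but lay at 1003 bp. Those of tba-1 and tba-2 lay inside the limit and differed by rank between replicates 1 and 2. The ranks were 699 and 18193 at tba-1, and 751 and 3122 at tba-2.

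The sources do not give how reads from near-identical copies were placed, and the sequence shared between members was therefore measured. The coding sequences of tba-1 and tba-2 were 86.4% identical, and those of tbb-1 and tbb-2 were 84.8% identical. Shared runs were searched on either strand of the genes with their introns and 1000 bp flanks, not in coding sequence alone. The longest run was 41 bp for tba-1 and tba-2 and 29 bp for tbb-1 and tbb-2. Among all members it was 53 bp, between tbb-2 and mec-7. The most divergent beta-tubulin was tbb-6, at 63.1% identity to tbb-2 and 62.7% to tbb-1. Of all 36-base stretches in a member and its flanks, at most 1.9% (mec-7) occurred elsewhere in the genome, and 0 did for tbg-1, tbb-4 and tbb-6.

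The base composition of the optimal regions differed among the 3 genes. The GC content of the 280 bp region was 31.4% at tbg-1, 38.2% at tbb-2 and 45.4% at tbb-1, beside a median of 38.9% over 740 optimal regions of that width. The hexamer AATAAA, the letters of the common polyadenylation signal, occurred once on the gene's strand in the regions at tbg-1 and tbb-1 and on neither strand in the one at tbb-2. About the same share of all regions of that width held it on either strand, 51.5% of optimal and 49.9% of pooled ones.

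The other tubulin genes behaved unevenly. The alpha-tubulin gene tba-7 had the only other optimal summit, of rank 216 and signal 65.48, in an intron 320 bp past its 5′ end and also inside the non-coding RNA genes T28D6.13 and T28D6.15. It ranked 2175 in replicate 1 and 115 in replicate 2. The beta-tubulin gene ben-1, whose product is the target of benzimidazole drugs, had 8 pooled summits with a best rank of 4938, and tba-9 had 3 with a best rank of 11754. Gene tba-5 had at least 1 summit in each replicate list but none in the pooled one. No list had a summit near tba-4, tba-6 or tba-8. For tba-4, 33.16% of 36-base stretches occurred elsewhere in the genome. The part of these repeats in the absence of summits was not tested.

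Genes that work with tubulin were read in the same way, list by list. Among tubulin folding genes, 17 of 19 had a pooled summit and 4 had an optimal one, beside 49.6% and 5.41% of all genes. These 4 were the chaperonin subunits cct-7 (rank 472), cct-8 (480) and cct-6 (763) and the cofactor tbca-1 (646). For 3 of the 4 the nearest 5′ end belonged to a neighbour, Y55F3AR.2 at cct-8, ddx-23 at cct-6 and eif-2gamma at tbca-1. The cct-7 summit lay in that gene, 44 bp before its 3′ end.

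Among gamma-tubulin and centrosome partners, 8 of 11 had a pooled summit and 1 an optimal one, beside 49.6% and 5.41% of all genes, as for the lists that follow. That was spd-2, a centrosome assembly gene, at rank 699, 115 bp upstream, nearer the 5′ end of F32H2.10 (95 bp) and overlapping no region of replicate 1. Among microtubule-associated and severing proteins, 16 of 20 had a pooled summit. The 4 with an optimal one were zyg-9 (rank 266, nearer the 5′ end of fars-3), unc-33 (688, at a small RNA gene and nearer the 5′ end of M57.2), cls-2 (700) and unc-119 (779), the last of which also has a copy in the transgene. Of 10 tubulin modification genes, 7 had a pooled summit and 0 an optimal one. The best ranks there were 1214 at mec-17, an alpha-tubulin acetyltransferase, and 1935 at its relative atat-2. Both summits lay in the gene near its 3′ end, with arf-5 and hog-1 having the nearer 5′ ends.

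Among touch neuron genes, 7 of 13 had a pooled summit and 0 an optimal one, near the 49.6% and 5.41% of all genes. The best were mec-14 (rank 1106, nearer the 5′ end of the ribosomal gene rps-21) and mec-4 (3757), the touch channel subunit gene. Of the 4 genes with sequence in the transgene, pie-1 (rank 294) and unc-119 had an optimal summit, and ama-1 itself had no summit in any list.

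**Figure D4:**
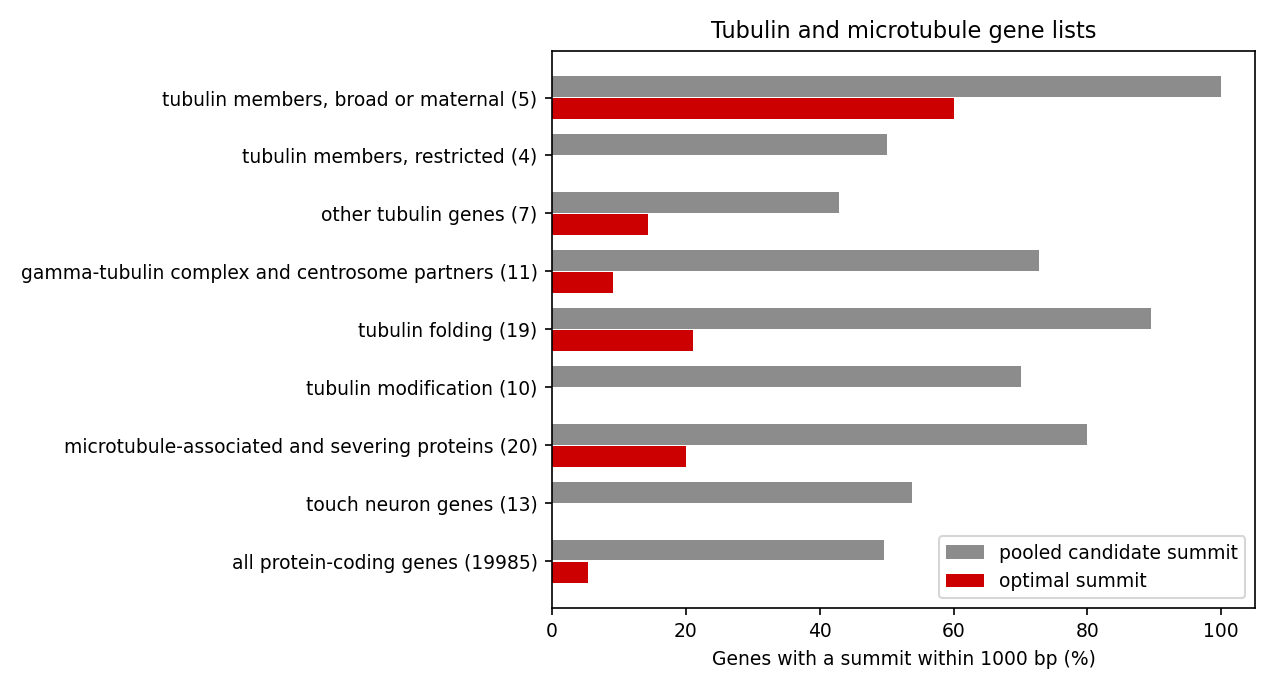
Share of genes (%) with a pooled candidate summit (grey) or an optimal summit (red) within 1000 bp, for the broad and restricted tubulins, the other lists and all protein-coding genes, with the number of genes in brackets. Optimal summits were found near 3 of 5 broad genes and 0 of 4 restricted genes.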

How the data were processed

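AMA-1 ChIP-seq peak lists of 2 biological replicates, the pooled replicates and an optimal list were used, on build ce11 as named in the labels; the ce10 lists were not used. Per the names the submitters gave the files, the replicate and pooled lists were the input of the irreproducible discovery rate step. For the peak caller, aligner, thresholds and use of the control, the sources used here give nothing. Column 7, the authors' signal, is treated as a deposited score of unstated scale and gave the rank within a list; column 9 holds q-values that the authors deposited on a −log10 scale. Summits were taken as start plus the offset in column 10. Depth is unknown, so no interval could be given.

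Genes came from the Ensembl release 115 annotation of WBcel235, and sequence from the RefSeq genome. A gene had a summit when one lay in it or within 1000 bp, and a small RNA gene was near within 250 bp. With 1 group and 2 replicates, no test was run. Shares over all 19985 protein-coding genes stand beside the counts. The window step was tested on simulated data. Python 3.11.15, numpy 2.4.6, pandas 2.3.3, Biopython 1.88 and matplotlib 3.10.9 were used.

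Members and lists were chosen with earlier results of these data known. Named genes were the 9 members, the other tubulins, listed genes with optimal summits (up to 5) or else up to 2 with the best pooled ranks, neighbours nearer to a summit than the member, and the 3 genes most like the member with the best rank. Alternatives were the window, the summit assignment, peak strength and leaving out each replicate. Of 11 tubulin modification genes listed, 10 matched the annotation.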

Additional observations from a re-analysis of the deposited data

How the results depend on the processing

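The number of members with an optimal summit, 3 at 1000 bp, was 0 at 500 bp, 0 at 250 bp and 0 within the gene, 1 (tbb-2) when a summit counted only for the nearest 5′ end, 1 (tbg-1) with the stronger 443 peaks, and 5 when it sufficed that the peak interval reached the window, which added tba-1 and mec-7. Broad members alone gave 3, and 0 at 500 bp, 0 at 250 bp, 0 within the gene, 1 by nearest 5′ end and 1 with the stronger peaks. Restricted members gave 0, and 1 (mec-7) by interval. Using the 887 strongest regions of a single replicate in place of the optimal list gave 3 to 4 members, 2 to 3 of them broad and 1 restricted (mec-7 in each case). Without replicate 1 the members were tbb-2, tbg-1 and mec-7, and without replicate 2 they were tba-1, tba-2, tbb-2 and mec-7. Pooled summits at members numbered 35, and 23 at 500 bp, 22 at 250 bp, 17 within the gene and 19 among the 10000 strongest regions. Of these, broad genes held 30, and 19, 18, 13 and 18, and restricted genes held 5, and 4, 4, 4 and 1, alternatives of this split that were added after seeing the data. The 7 members with a pooled summit were 6 among the 10000 strongest. Of 49 recomputed percentiles of a member's best rank, 26 moved beyond the SD of the 2 replicates. The causes were not tested. No paired analysis was possible because there is a single group. Depth is unknown, so a gene without a summit may lie below what these lists could call.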

Other observations

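Genes of the germline, where broad tubulins are used, and of the touch receptor neurons, where mec-7 and mec-12 are used, were also read from the lists. They do not cover tbb-4 or tbb-6, or the other cells in which broad tubulins are used. Of 8 germline genes, 7 had a pooled summit within 1000 bp and 1 an optimal one, with 25 pooled summits in all, beside 49.6% and 5.41% of all genes. The optimal one was at pgl-1, a P granule gene, at rank 368, with best ranks of 7203 in replicate 1 and 349 in replicate 2. The germline stem cell receptor gene glp-1 had no summit in any list. Of 5 touch receptor neuron genes, 2 had a pooled summit and 0 an optimal one, with 9 pooled summits in all, shares near those of all genes. These genes overlap the lists above. Genes mec-3, mec-4, mec-10 and mec-18 were among the 13 touch neuron genes, of which 7 had a pooled summit. Gene mec-17 was among the tubulin modification genes. The difference between the germline and the touch receptor neuron genes was not tested. The pooled summits were at mec-4 and mec-17, while mec-3, mec-10 and mec-18 had none in any list.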
